A study of Rattus norvegicus with 18 samples.

Results

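The libraries described here were made from macrophages of knees with osteoarthritis (OA), collected at 4-weeks and 12-weeks after OA induction. They were chosen by their labels alone, and they are 9 of the 18 libraries of the series, 5 at 4-weeks and 4 at 12-weeks. OA was induced in male, wild-type Sprague Dawley rats, 12 weeks of age, by cutting the anterior cruciate and medial meniscotibial ligaments. The other 9 libraries came from sham rats of the same strain, sex and age, in which the joint was opened and closed, with 5 libraries at 4-weeks and 4 at 12-weeks. Cells were digested from the synovium and sorted with magnetic beads for CD11b/c, surface integrins of myeloid cells. Each library was a pool of 4 rats at 4-weeks and of 3 rats at 12-weeks, so p-values measure the spread between pools. The rats of the later time point were also older, and the samples of each time point were normalized apart. Time after surgery, age, pool size and any processing batch therefore cannot be told apart in these libraries, and the sham libraries share all of them. RNA was measured in bulk, so that fewer cells of a type and less RNA per cell cannot be told apart.

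Synovial macrophages are of several kinds. Those of the lining form a sheet facing the joint cavity and carry Vsig4 and Trem2, while resident macrophages of the sublining carry scavenger receptors such as Cd163 and Lyve1 and remove debris. Both are joined after injury by cells that come from blood monocytes, and macrophages in tissue can also divide. Activated macrophages turn on cytokine and chemokine genes through NF-kB and antiviral genes through interferon.

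Read depth overlapped between the time points. Recovered reads ranged from 11046979 to 17235069 per OA library at 4-weeks (median 14063242) and from 12841781 to 15697734 at 12-weeks, and the difference in means gave an exact permutation p of 0.746 (two-sided). The 10 most abundant genes took 4.60 ± 0.285% of reads (SD, n = 5) at 4-weeks and 5.26 ± 0.361% (SD, n = 4) at 12-weeks, with an exact permutation p of 0.0317, where 0.0159 is the smallest these groups allow. Levels are given as CPM, reads of a gene scaled to the size of its library. In OA the limit of detection, set at 3 reads, was 0.174 to 0.272 CPM and covers counting error only. Markers of the sorted cells were present in every pool. Itgam, which encodes CD11b, was at 454, 429, 355, 348 and 313 CPM in the 5 pools at 4-weeks and 357, 447, 344 and 422 CPM in the 4 pools at 12-weeks, and its log2 fold change of 0.06 (SE 0.11, adjusted p-value 0.811) was not called and changed sign in some alternatives, among them the fit without TMM scaling.

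At 12-weeks, as compared with 4-weeks, OA macrophages showed 385 genes called of 14420 tested (2.67%), 272 higher (1.89%) and 113 lower (0.784%). To be called, a gene had to differ by 0.5 or more on the log2 scale and to have a Benjamini-Hochberg adjusted p-value under 0.05 in limma. The fit was to log2 CPM with a prior count of 2, so that fold changes of low genes come out too small. Of the genes called, 83 were higher and 25 were lower by at least 1 on the log2 scale. The 2 groups of pools did not overlap in 343 of the 385 genes, and in 1565 of all genes tested (10.9%). On the recovered reads, edgeR called 277 genes higher (1.92%) and 106 lower (0.735%), and 367 of the 385 genes were called by both tools. DESeq2 called 383 higher and 189 lower of the 14137 genes to which it gave an adjusted p-value. Without TMM scaling, which sets the libraries to a common level through the bulk of their genes, limma called 234 higher and 197 lower, a more even split. With 1 pool left out, the count fell by more than 1.5 times without replicate 1 of 12-weeks (174 genes), replicate 1 of 4-weeks (220), replicate 3 of 12-weeks (223), replicate 2 of 4-weeks (233) and replicate 2 of 12-weeks (249). With all 18 libraries in the fit 131 genes were called, all of them among the 385.

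Among lists of genes of known function, the genes called within a list mostly moved in 1 direction. Called genes were higher at 12-weeks among genes encoded by mitochondria, interferon response genes, chemokines, the NF-kB pathway, complement, and markers of muscle, red blood cells and fibroblasts. Called genes were lower among cell cycle genes, collagens of basement membrane, and 2 of 10 markers of pericytes and smooth muscle. Over all genes tested, the median log2 fold change was 0.00.

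**Figure D1:**
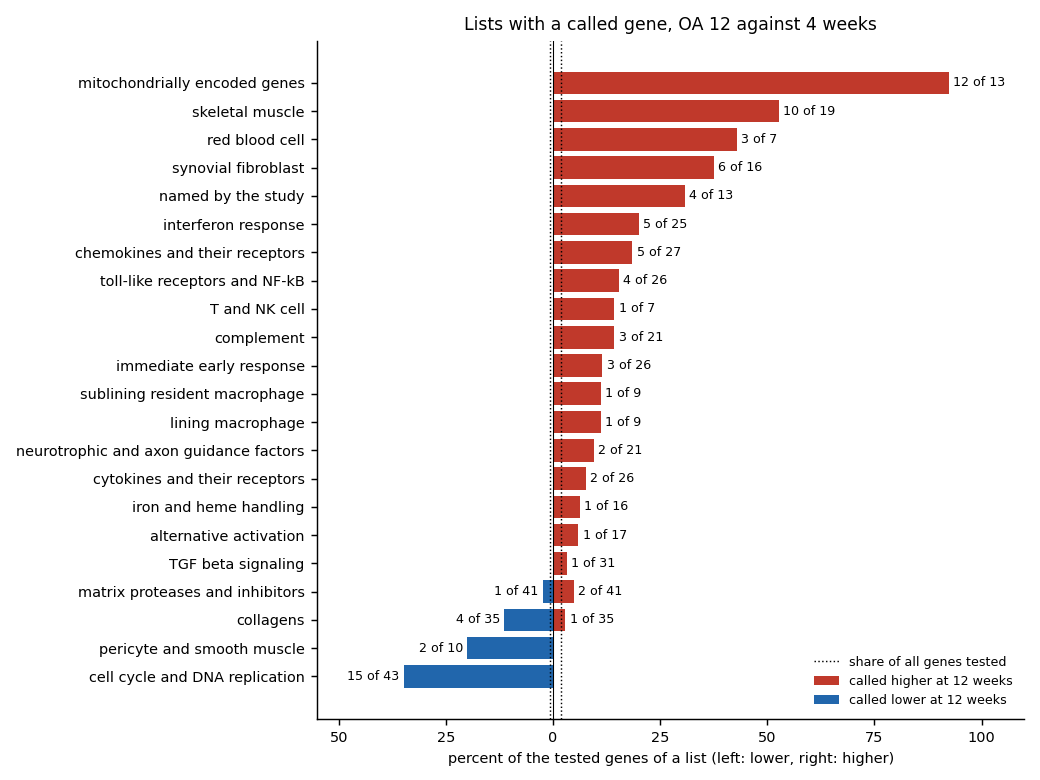
Share of the tested genes of each list that was called higher (red, to the right) or lower (blue, to the left) at 12-weeks in OA, for lists with a called gene, with the count beside each bar. Dotted lines mark the share among all genes tested, 1.89% higher and 0.784% lower. Mitochondrially encoded genes stand at the top with 12 of 13 called higher, and cell cycle genes at the bottom with 15 of 43 called lower.

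Mitotic genes were lower at 12-weeks. Of 43 cell cycle genes tested, 15 were called lower and 0 higher in limma, against 0.784% of all genes called lower, and the median log2 fold change was -0.63. All 15 belonged to the 21 mitosis genes tested, whose median was -0.92, while 0 of the 22 DNA replication genes were called in limma, with a median of -0.31. Among replication genes, the helicase subunit gene Mcm2 had -0.31 with an adjusted p-value of 0.0415, below the fold-change minimum, the sliding clamp gene Pcna had -0.05, and the ribonucleotide reductase gene Rrm2 had -1.004 with an adjusted p-value of 0.0844. In DESeq2, 21 of the 43 genes were called, against 572 of 14137 genes in all. Among the 21 were the replication genes Mcm5, Cdc6 and Rrm2.

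Plk1 (ENSRNOG00000018815), a kinase that drives entry into and exit from mitosis, was at 9.66, 9.30, 4.82, 4.56 and 5.81 CPM in the 5 pools at 4-weeks and 2.79, 2.94, 2.46 and 2.90 CPM in the 4 pools at 12-weeks. All 4 pools of 12-weeks lay within a narrow band below every pool of 4-weeks, and among the latter replicates 1 and 2 were the highest. Its log2 fold change was -1.19 (SE 0.23, adjusted p-value 0.0171). Top2a (ENSRNOG00000053047), the topoisomerase that untangles chromosomes, was at 76.4, 85.2, 54.6, 41.5 and 38.4 CPM in the 5 pools at 4-weeks and 24.5, 35.9, 18.96 and 25.6 CPM in the 4 pools at 12-weeks. Here replicate 5 of 4-weeks and replicate 2 of 12-weeks came close, but the groups did not overlap, and the log2 fold change was -1.13 (SE 0.24, adjusted p-value 0.0271).

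Bub1, a kinase of the spindle checkpoint, was at 24.1, 29.2, 15.03, 14.5 and 16.8 CPM in the 5 pools at 4-weeks and 9.55, 12.00, 8.25 and 7.41 CPM in the 4 pools at 12-weeks, with no overlap and a log2 fold change of -1.05 (SE 0.21, adjusted p-value 0.0211). The ubiquitin-conjugating enzyme Ube2c, which serves the anaphase-promoting complex, fell by 1.10 on the log2 scale. Cdk1, the kinase that starts mitosis, had -1.04 (SE 0.24, adjusted p-value 0.0321), and the proliferation marker Mki67 ranged from 58.7 to 125 CPM at 4-weeks and 38.5 to 54.5 CPM at 12-weeks, with a log2 fold change of -0.94 (SE 0.21, adjusted p-value 0.0312). The 10 largest falls, picked among called genes whose groups did not overlap, also hold genes of mitosis outside the list, given as a description: Pbk, a mitotic kinase, had -1.24, Kif2c, a kinesin that takes microtubules apart, -1.08, Ect2, which acts in cytokinesis, -1.07, and Pimreg -1.09. Not every mitotic gene was called: Aurka had -0.32 (SE 0.14, adjusted p-value 0.217) and Birc5 -0.33 (SE 0.24, adjusted p-value 0.448).

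The count of cell cycle calls rested on single pools more than its direction did. With each OA pool left out in turn, 1 to 16 of the 43 genes were called lower, while the median stayed between -0.70 and -0.50. The count was 1 without replicate 1 of 12-weeks, 3 without replicate 3 of 12-weeks or replicate 1 of 4-weeks, 4 without replicate 2 of 4-weeks, 6 without replicate 4 of 12-weeks and 9 without replicate 2 of 12-weeks. With all 18 libraries in the fit, which lets the wider spread of the sham pools enter, 0 of the 43 were called in limma. Summed neutrophil markers stood at 1228, 126, 1415, 113 and 127 CPM in the 5 pools at 4-weeks and at 189, 333, 106 and 131 CPM in the 4 pools at 12-weeks. Replicates 1 and 3 of 4-weeks were thus far above the other pools in these markers, and without both pools 6 cell cycle genes were called lower. The part of these cells in the result was not tested.

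**Figure D2:**
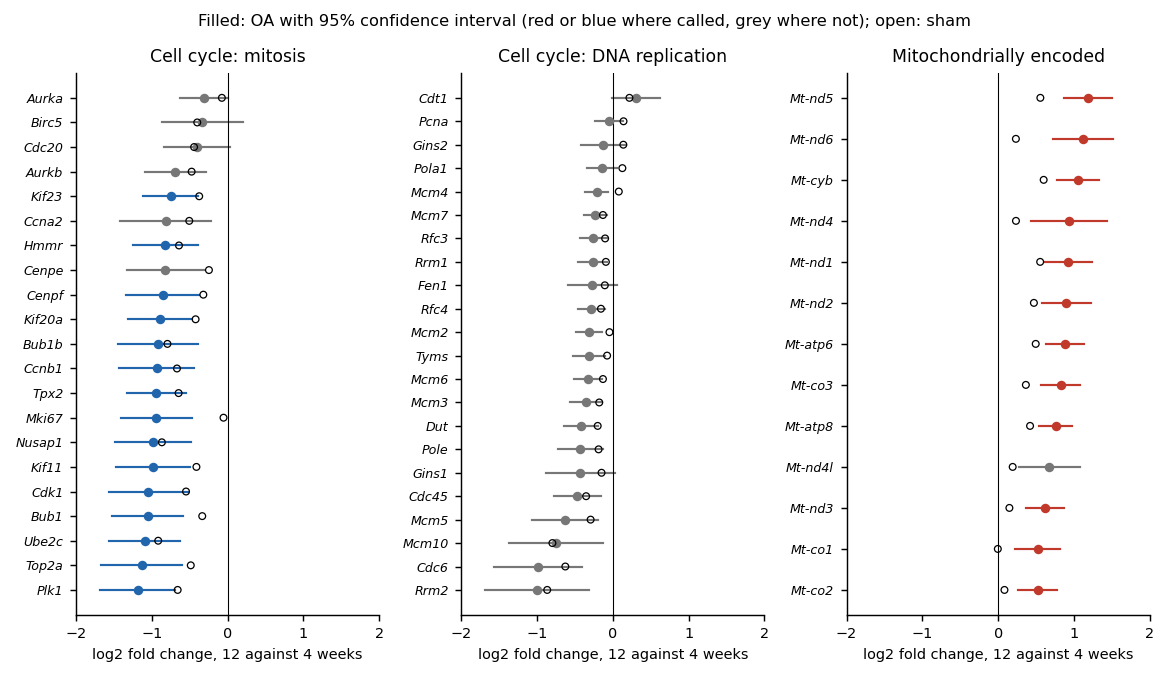
Log2 fold change at 12 against 4 weeks for mitosis genes (left), DNA replication genes (middle) and mitochondrially encoded genes (right). Filled points and lines give OA with its 95% confidence interval, blue or red where called and grey where not, and open circles give sham. Plk1 sits lowest among mitosis genes at -1.19, no replication gene is coloured, and Mt-nd5 sits highest among mitochondrial genes at 1.19.

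The promoters of mitotic genes commonly hold CCAAT boxes, and many hold a cell cycle homology region (CHR), through which these genes are held silent outside division. The 250 bases before the start site are shown for 3 genes called lower, to let the spacing of these elements be seen. They come from RefSeq on the GRCr8 build and are written 5′ to 3′ on the strand of the gene, with CCAAT boxes (the letters CCAAT or, on the other strand, ATTGG) and CHR elements (TTTGAA and TTCGAA or, on the other strand, TTCAAA) in capitals.
Plk1, chr1:186147408-186147657, plus strand: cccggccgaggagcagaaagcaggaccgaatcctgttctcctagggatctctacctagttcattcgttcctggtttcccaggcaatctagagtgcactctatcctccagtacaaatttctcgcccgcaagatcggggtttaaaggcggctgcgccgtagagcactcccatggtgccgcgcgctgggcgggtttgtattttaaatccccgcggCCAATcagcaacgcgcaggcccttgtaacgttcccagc
Top2a, chr10:84473094-84473343, minus strand: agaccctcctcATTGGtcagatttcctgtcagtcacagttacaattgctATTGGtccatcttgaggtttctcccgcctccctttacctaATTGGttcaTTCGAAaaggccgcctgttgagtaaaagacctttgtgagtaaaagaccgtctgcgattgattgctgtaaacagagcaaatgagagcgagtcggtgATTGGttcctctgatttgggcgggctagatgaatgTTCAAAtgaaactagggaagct
Cdk1, chr20:19265043-19265292, plus strand: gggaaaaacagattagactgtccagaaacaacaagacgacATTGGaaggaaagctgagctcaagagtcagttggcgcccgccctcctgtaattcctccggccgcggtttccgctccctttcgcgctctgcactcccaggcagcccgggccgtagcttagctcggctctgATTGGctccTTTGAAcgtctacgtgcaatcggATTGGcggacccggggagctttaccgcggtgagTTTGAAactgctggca
Plk1 holds 1 CCAAT box, Top2a holds 4 with 2 CHR elements, and Cdk1 holds 3 with 2 CHR elements. In Top2a the CHR nearest the start lies downstream of the nearest CCAAT box, and the same order is seen in Cdk1. Of the 15 cell cycle genes called, 13 had a promoter in the RefSeq table, of which 11 held a CCAAT box and 6 a CHR. A CCAAT box was present in 46 of the 87 promoters of genes called lower (52.9%), in 46 of 163 of genes called higher (28.2%), in 35.3% of 10249 promoters of genes tested and in 34.2% of all 27457 promoters. CHR letters were present in 26.4% of promoters of genes called lower, 14.1% of those called higher, 12.0% of those tested and 17.3% of all. Both strands were searched. A match of letters is a description of the window and not a site shown to be used.

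Genes encoded in the mitochondrial genome were higher at 12-weeks. Of 13 tested, 12 were called higher and 0 lower, against 1.89% of all genes called higher, and the median log2 fold change was 0.88. These genes encode core subunits of the respiratory chain and of ATP synthase, whose other subunits are encoded in the nucleus. Mt-nd5 (ENSRNOG00000029971), of complex I, was at 224, 222, 243, 160.3 and 221 CPM in the 5 pools at 4-weeks and 544, 363, 469 and 586 CPM in the 4 pools at 12-weeks. Every pool of 12-weeks was above every pool of 4-weeks, and replicate 4 of 4-weeks was the lowest. The log2 fold change was 1.19 (SE 0.14, adjusted p-value 0.00213). Mt-cyb (ENSRNOG00000031766), the cytochrome b of complex III, was at 540.3, 529.7, 523, 422 and 519 CPM in the 5 pools at 4-weeks and 1017, 794, 1116 and 1330.3 CPM in the 4 pools at 12-weeks, again with no overlap and with a log2 fold change of 1.05 (SE 0.13, adjusted p-value 0.00215). Mt-nd6 had 1.12 (SE 0.18, adjusted p-value 0.00724). The smallest of the rises called were those of the complex IV genes Mt-co1, at 0.52 (SE 0.14, adjusted p-value 0.0483), and Mt-co2, at 0.52 (SE 0.12, adjusted p-value 0.0312). Mt-nd4l, whose sequence overlaps that of Mt-nd4, had 0.67 (SE 0.18, adjusted p-value 0.0574). DESeq2 called all 13, against 572 of 14137 genes in all.

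The 13 genes together took 0.995, 1.12, 1.06, 0.888 and 1.09% of the reads of the 5 pools at 4-weeks and 1.49, 1.26, 1.64 and 1.94% of the 4 pools at 12-weeks, so the share did not overlap between the groups. Of 69 nuclear genes of the respiratory chain tested, 0 were called in limma, edgeR and DESeq2, and the median log2 fold change was -0.05. Of the 69, 8 had an unadjusted p-value under 0.05, against 3348 of all 14420 genes tested. With each pool left out in turn, 9 to 12 of the 13 mitochondrial genes were called and the median ranged from 0.77 to 1.00. In sham the median was 0.37 and 0 of the 13 genes were called in limma. Of 28 heat shock and unfolded protein genes, which respond to cell stress, 0 were called by limma, edgeR or DESeq2, with 6 at an unadjusted p-value under 0.05 and a median of -0.03.

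Some inflammatory genes were higher at 12-weeks in OA, in each pathway a minority of those tested. Of 26 cytokine and receptor genes tested, 2 were called higher and 0 lower, both of them ligands (7.69%, against 1.89% of all genes called higher), with a median log2 fold change of 0.09 over the list. Il6 (ENSRNOG00000010278), which drives the acute phase response, was at 18.02, 33.2, 23.3, 29.5 and 42.00 CPM in the 5 pools at 4-weeks and 97.6, 53.6, 78.8 and 35.2 CPM in the 4 pools at 12-weeks. Replicate 4 of 12-weeks lay below replicate 5 of 4-weeks, so the groups overlapped, and the log2 fold change was 1.14 (SE 0.30, adjusted p-value 0.0485), a call lost in 9 of 18 alternatives. Lif, a cytokine of the same receptor family, was at 4.12, 7.08, 4.88, 4.77 and 5.17 CPM in the 5 pools at 4-weeks and 12.9, 12.2, 9.84 and 7.09 CPM in the 4 pools at 12-weeks. The groups met at replicate 2 of 4-weeks and replicate 4 of 12-weeks without overlap, and the log2 fold change was 0.98 (SE 0.19, adjusted p-value 0.0189). Il1b, which encodes interleukin 1 beta, ranged from 126 to 276 CPM at 4-weeks and 209 to 376 CPM at 12-weeks with 0.67 (SE 0.21, adjusted p-value 0.0896), and was not called. The cytokine count was 0 without replicate 1 or 2 of 12-weeks, and 1 without replicate 1, 3 or 4 of 4-weeks.

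Chemokines draw leukocytes into tissue. Of 27 chemokine and receptor genes tested, 5 were called higher (18.5%, against 1.89%) and 0 lower, with a median of 0.29, 4 of them among the 18 ligands and 1 among the 9 receptors. Ccl2 (ENSRNOG00000007159), the main attractant of monocytes, was at 296, 358, 229, 278 and 215 CPM in the 5 pools at 4-weeks and 563, 476, 419 and 397 CPM in the 4 pools at 12-weeks. The lowest pool of 12-weeks was above the highest of 4-weeks, and the log2 fold change was 0.77 (SE 0.15, adjusted p-value 0.0170). Ccl7, its neighbour in the same cluster of genes, had 0.58 (SE 0.14, adjusted p-value 0.0361). Ccl24, an attractant of eosinophils that marks alternatively activated macrophages, was at 109, 95.8, 194, 104 and 90.3 CPM in the 5 pools at 4-weeks and 236, 224, 188 and 223 CPM in the 4 pools at 12-weeks. Replicate 3 of 4-weeks stood at the level of the pools of 12-weeks, and the log2 fold change was 0.93 (SE 0.19, adjusted p-value 0.0192). Ccl5 was low in every pool, at 1.59, 1.03, 0.574, 0.982 and 0.726 CPM in the 5 pools at 4-weeks and 2.08, 2.49, 3.49 and 2.34 CPM in the 4 pools at 12-weeks, with 1.33 (SE 0.27, adjusted p-value 0.0197). The receptor Ccr1 had 0.63 (SE 0.12, adjusted p-value 0.0191). The chemokine count fell to 1 without replicate 1 or replicate 2 of 12-weeks, and to 3 without replicate 3 of 12-weeks.

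Of 26 toll-like receptor and NF-kB genes tested, 4 were called higher (15.4%, against 1.89%) and 0 lower, with a median of 0.13. The 3 called in the group of NF-kB factors were Tnfaip3, Nfkbia and Rel. Tnfaip3 (ENSRNOG00000049517) encodes A20, which ends NF-kB signaling and is itself a target of NF-kB. It was at 212, 311, 232, 291 and 297 CPM in the 5 pools at 4-weeks and 574, 489.5, 506 and 377 CPM in the 4 pools at 12-weeks. The groups did not overlap, with replicate 4 the lowest at 12-weeks, and the log2 fold change was 0.86 (SE 0.14, adjusted p-value 0.00749). Nfkbia, the inhibitor that holds NF-kB in the cytoplasm and another of its targets, was at 732, 934, 745, 853 and 873 CPM in the 5 pools at 4-weeks and 1261, 1235, 1300.5 and 1008 CPM in the 4 pools at 12-weeks, with no overlap and a log2 fold change of 0.54 (SE 0.10, adjusted p-value 0.0126). Rel, an NF-kB subunit, had 0.55 (SE 0.10, adjusted p-value 0.0111). Among the 11 receptors, Tlr11 was the only one called in limma, at 0.66 (SE 0.16, adjusted p-value 0.0374), and its groups overlapped. Of 26 immediate early genes, which respond within minutes to stimulation, 3 were called higher (11.5%, against 1.89%) and 0 lower, with a median of 0.35 and all 26 above 0: Nr4a3 at 1.06 (SE 0.18, adjusted p-value 0.00861), Fosl2 at 0.63 (SE 0.13, adjusted p-value 0.0245) and Egr2 at 0.55 (SE 0.13, adjusted p-value 0.0372). Such genes can also be switched on while tissue is digested, and the part of digestion in the result was not tested. In DESeq2, 7 immediate early genes were called, against 572 of 14137 genes in all. The count in limma was 1 without replicate 1 of 4-weeks or without replicate 1, 2 or 3 of 12-weeks, and 8 without replicate 4 of 12-weeks. That of toll-like receptors and NF-kB was 2 without replicate 1 of 4-weeks or without replicate 1 or 3 of 12-weeks.

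**Figure D3:**
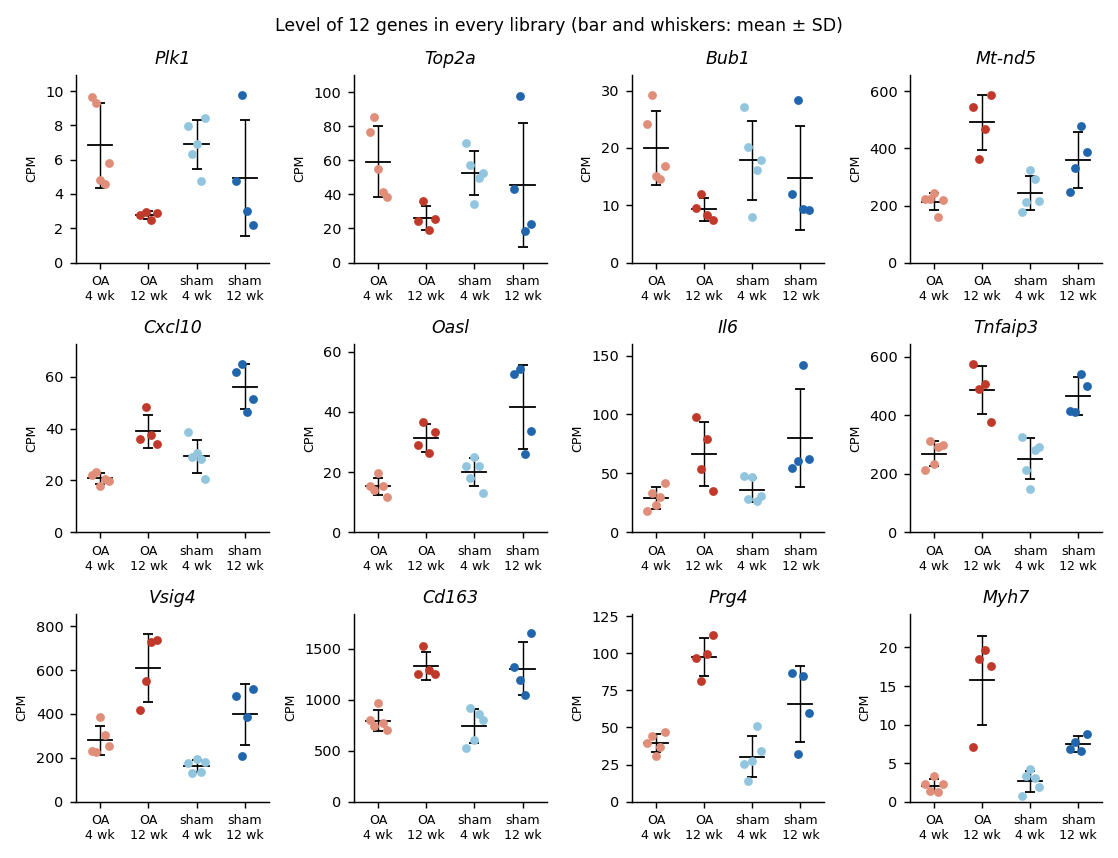
CPM of 12 genes in every library, by surgery and time point, with the mean and SD of each group. In OA, Plk1 sits at 2.46 to 2.94 CPM in the 4 pools at 12-weeks, below every pool at 4-weeks, while Mt-nd5, Cxcl10, Oasl, Tnfaip3, Vsig4, Cd163, Prg4 and Myh7 have each pool at 12-weeks above each pool at 4-weeks.

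The promoters of 3 of these genes are shown because the files bear on genes that NF-kB is known to control. The 250 bases before each start site are from RefSeq on GRCr8, 5′ to 3′ on the strand of the gene, with matches to NF-kB letters in capitals, which are GGG and TTCC with 3 bases between them or, on the other strand, GGAA and CCC with 3 bases between them.
Nfkbia, chr6:78597073-78597322, minus strand: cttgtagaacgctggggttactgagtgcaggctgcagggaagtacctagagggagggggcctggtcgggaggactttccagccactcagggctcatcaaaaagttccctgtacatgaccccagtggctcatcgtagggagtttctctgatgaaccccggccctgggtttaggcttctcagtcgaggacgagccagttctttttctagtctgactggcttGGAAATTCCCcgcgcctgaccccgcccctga
Tnfaip3, chr1:15543980-15544229, minus strand: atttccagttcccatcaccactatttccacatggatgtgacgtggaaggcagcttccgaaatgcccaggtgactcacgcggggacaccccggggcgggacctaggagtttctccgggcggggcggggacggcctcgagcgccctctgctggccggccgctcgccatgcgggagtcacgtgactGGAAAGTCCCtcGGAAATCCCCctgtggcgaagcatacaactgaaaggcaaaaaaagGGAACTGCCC
Il6, chr4:5894576-5894825, minus strand: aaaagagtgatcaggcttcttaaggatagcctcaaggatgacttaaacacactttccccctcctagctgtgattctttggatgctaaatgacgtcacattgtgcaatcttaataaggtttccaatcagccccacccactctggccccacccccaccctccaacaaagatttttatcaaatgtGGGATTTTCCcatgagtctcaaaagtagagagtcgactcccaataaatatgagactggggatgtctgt
Nfkbia and Il6 each hold 1 match and Tnfaip3 holds 3, of which the last adjoins the start site. Of the 11 cytokine, chemokine, toll-like receptor and NF-kB genes called, 8 had a promoter in the table, and 5 of these held the letters: Ccl7, Il6, Nfkbia, Rel and Tnfaip3. The letters were present in 9.20% of promoters of genes called higher, 2.30% of those called lower, 5.70% of those tested and 4.53% of all promoters. The letters of the interferon-stimulated response element are a pair of GAAA with 2 bases between them or, on the other strand, a pair of TTTC. Of the 4 called interferon genes with a promoter, 3 had a match, Cxcl10, Ifit3 and Rsad2. These letters were present in 3.07% of promoters of genes called higher, 2.30% of those called lower, 2.67% of those tested and 3.32% of all promoters.

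Antiviral genes of the interferon response were among those higher at 12-weeks. Of 25 tested, 5 were called higher (20.0%, against 1.89%) and 0 lower, 24 lay above 0, and the median log2 fold change was 0.30. All 5 were among the 20 effectors, and 0 of the 5 transcription factors tested were called by limma. Cxcl10 (ENSRNOG00000022256), an interferon-induced attractant of T cells, was at 22.3, 23.2, 17.8, 20.7 and 19.6 CPM in the 5 pools at 4-weeks and 36.1, 48.4, 37.4 and 34.2 CPM in the 4 pools at 12-weeks. The 2 groups were well apart, and the log2 fold change was 0.90 (SE 0.11, adjusted p-value 0.00213). Oasl, of the antiviral oligoadenylate synthetase family, was at 15.4, 14.1, 19.7, 15.5 and 11.8 CPM in the 5 pools at 4-weeks and 28.97, 36.7, 26.3 and 33.3 CPM in the 4 pools at 12-weeks, with no overlap and 1.04 (SE 0.14, adjusted p-value 0.00299). Rsad2, the antiviral enzyme viperin, varied more among the pools of 12-weeks, at 19.02, 16.5, 24.7, 15.2 and 16.7 CPM in the 5 pools at 4-weeks and 25.4, 53.8, 34.6 and 66.5 CPM in the 4 pools at 12-weeks, with 1.21 (SE 0.24, adjusted p-value 0.0199). Usp18, which restrains interferon signaling, had 0.65 (SE 0.13, adjusted p-value 0.0190), and Ifit3 had 0.55 (SE 0.11, adjusted p-value 0.0192). Not called were Isg15, at 0.43 (SE 0.14, adjusted p-value 0.0915), and the factor Irf7, at 0.66 (SE 0.22, adjusted p-value 0.101). With a pool left out, 3 to 9 interferon genes were called, 3 without replicate 2 of 12-weeks and 9 without replicate 3 of 4-weeks.

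Complement genes included 3 called higher (14.3%, against 1.89%) and 0 called lower of 21 tested, with a median of 0.33. C4b, a component of the classical pathway, was at 288, 312, 307, 351 and 335 CPM in the 5 pools at 4-weeks and 592, 565, 599 and 516 CPM in the 4 pools at 12-weeks. The groups were far apart for the spread within them, and the log2 fold change was 0.84 (SE 0.07, adjusted p-value 0.000528). C1s, a protease that starts the same pathway, had 0.54 (SE 0.11, adjusted p-value 0.0266). The remaining one was Vsig4, described next. Without replicate 3 of 4-weeks 5 complement genes were called.

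Genes that define macrophages held no call. Of 23 core macrophage genes tested, 0 were called in limma, edgeR or DESeq2, and the median log2 fold change was 0.15. Of the 23, 9 had an unadjusted p-value under 0.05, against 3348 of all 14420 genes tested. Csf1r, the receptor that keeps macrophages alive, had 0.30 (SE 0.08, adjusted p-value 0.0585), and Cd68 had 0.09 (SE 0.12, adjusted p-value 0.670). Among 9 lining macrophage genes, 1 was called higher (11.1%, against 1.89% of all genes), too small a count to be read as a result about the list. Vsig4 (ENSRNOG00000038132), a complement receptor of resident macrophages, was at 233, 224, 384, 306 and 255 CPM in the 5 pools at 4-weeks and 417, 552, 728 and 738 CPM in the 4 pools at 12-weeks. The lowest pool of 12-weeks was just above the highest of 4-weeks, and the log2 fold change was 1.11 (SE 0.19, adjusted p-value 0.00955). Trem2 had 0.19 and Cx3cr1 0.13, neither called. Among 9 sublining resident genes, 1 was called higher (11.1%, against 1.89%), a count too small to be read by itself. This was Cd163 (ENSRNOG00000010253), the scavenger receptor for hemoglobin, at 802, 745, 965, 770.4 and 704 CPM in the 5 pools at 4-weeks and 1254, 1532, 1289.5 and 1252 CPM in the 4 pools at 12-weeks. The groups did not overlap and the log2 fold change was 0.75 (SE 0.10, adjusted p-value 0.00261). Lyve1, at 0.49 (SE 0.11, adjusted p-value 0.0279), and Folr2, at 0.39 (SE 0.10, adjusted p-value 0.0398), passed the adjusted p-value but not the fold-change minimum. As a set, all 9 sublining genes lay above 0, with a median log2 fold change of 0.31 in OA and 0.36 in sham. Of the 9 in OA, 7 were higher at an unadjusted p-value under 0.05, and 5 of them also passed after adjustment. The summed level of the list did not overlap in OA, at 7371 to 9260 CPM at 4-weeks and 9640.5 to 10948 CPM at 12-weeks. The sublining count was 3 without replicate 3 of 4-weeks and 2 without replicate 1 or 3 of 12-weeks.

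Many of the lists had no called gene. In limma, 26 of the lists had 0 calls, and these also hold markers of other cell types, ribosomal proteins and histones. Together they held 488 entries of genes tested, with 117 entries at an unadjusted p-value under 0.05. Among all 14420 genes tested, 3348 had such a p-value. On the same lists edgeR gave 0 calls and DESeq2 gave 11, against 383 and 572 over all genes. They include infiltrating monocyte genes (12 tested), lipid-associated macrophage genes (14), antigen presentation by MHC class II (16), JAK, SOCS and STAT genes (20), Fc receptors and C-type lectins (22), glycolysis (23), cholesterol synthesis and uptake (28), the lysosomal proton pump and cathepsins (34) and ribosomal proteins (64). The medians of these 9 lists lay between -0.07 and 0.19 on the log2 scale. The MHC class II list, for example, had 6 of 16 genes at an unadjusted p-value under 0.05, all higher, and a median of 0.19. A p-value that misses the threshold does not show that levels were alike. Stat6, which carries the signal of interleukin 4 and which the study inhibited in other rats, was at 202, 207, 211, 212 and 202 CPM in the 5 pools at 4-weeks and 207, 233, 203 and 212 CPM in the 4 pools at 12-weeks, with a log2 fold change of 0.05 (SE 0.05, adjusted p-value 0.580) and a 95% confidence interval of -0.06 to 0.16, and its sign turned without TMM scaling. Among 17 genes of alternative activation, Ccl24 was the only one called by limma (5.88%, against 1.89% of all genes called higher). Its call was lost without replicate 1 or 2 of 12-weeks.

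Matrix genes moved in both directions. Of 35 collagen genes tested, 4 were called lower (11.4%, against 0.784%) and 1 higher (2.86%, against 1.89%), with a median of -0.05. Of the 4 genes that fell, 3 encode basement membrane chains, of which 8 were tested: Col4a1, at -0.55 (SE 0.10, adjusted p-value 0.0124), Col4a2, at -0.53 (SE 0.08, adjusted p-value 0.00694), and Col18a1, at -0.64 (SE 0.10, adjusted p-value 0.00694). Col12a1, which lies on the surface of collagen fibrils, had -0.96 (SE 0.20, adjusted p-value 0.0225), and replicate 3 of 4-weeks was within the range of 12-weeks. Col22a1, found at tissue junctions, was higher at 1.01 (SE 0.23, adjusted p-value 0.0306). Fibrillar chains included 0 called of 10, with Col1a1 at -0.24 and Col3a1 at -0.10. Another pair of matrix genes, chosen after their values were seen, also fell: Eln, which encodes elastin, at -0.94 (SE 0.11, adjusted p-value 0.00213), and the laminin chain gene Lamb1, at -0.72 (SE 0.10, adjusted p-value 0.00380). Without replicate 4 of 12-weeks 1 collagen gene was called lower. The collagen called higher was lost without replicate 1 or 3 of 12-weeks, and 2 were called higher without replicate 2 of 12-weeks or replicate 1 of 4-weeks.

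Of 41 matrix proteases and inhibitors, 2 were called higher (4.88%, against 1.89% of all genes) and 1 lower (2.44%, against 0.784%), counts too small to be read as a result about the list. Adamts4 (ENSRNOG00000003538), an aggrecanase that cuts the proteoglycan of cartilage, was at 130.2, 175, 139, 161 and 158 CPM in the 5 pools at 4-weeks and 472, 307, 366 and 172 CPM in the 4 pools at 12-weeks. Replicate 4 of 12-weeks lay just below replicate 2 of 4-weeks, while the other 3 pools of 12-weeks were above every pool of 4-weeks, and the log2 fold change was 1.03 (SE 0.23, adjusted p-value 0.0300). Adamts17 had 0.83 (SE 0.19, adjusted p-value 0.0326), and Adam12, a protease that sheds growth factors, had -0.83 (SE 0.19, adjusted p-value 0.0306). None of the 14 matrix metalloproteinases was called in limma. Mmp13, the main collagenase of cartilage, was at 5.42, 111, 4.65, 0.912 and 4.08 CPM in the 5 pools at 4-weeks and 2.34, 24.98, 22.1 and 12.6 CPM in the 4 pools at 12-weeks, where replicate 2 of 4-weeks was far above every other pool, and its estimate was 0.79 in limma and -0.68 in edgeR, called in neither. Of 31 TGF beta pathway genes 1 was called higher (3.23%, near the 1.89% of all genes), Bmp2, at 0.52 (SE 0.12, adjusted p-value 0.0366). Its call was lost without replicate 1 or 2 of 4-weeks or replicate 1, 2 or 3 of 12-weeks. The 3 protease calls fell to 0 without replicate 1 of 4-weeks or replicate 3 of 12-weeks, and to 1 without replicate 2 or 4 of 4-weeks or replicate 1 or 2 of 12-weeks. Of 21 neurotrophic and axon guidance genes, 2 were called higher (9.52%, against 1.89% of all genes), again too small a count to be read as a result about the list. They were the guidance cues Sema3e, at 1.19 (SE 0.19, adjusted p-value 0.00796), and Ntn4, at 0.70 (SE 0.11, adjusted p-value 0.00591).

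Markers of synovial fibroblasts were mixed. Of 16 tested, 6 were called higher (37.5%, against 1.89% of all genes) and 0 lower, but the median was 0.17. The summed level of the list overlapped, at 6913 to 10177 CPM at 4-weeks and 7257 to 9161 CPM at 12-weeks. The genes called include products of lining fibroblasts. Prg4 (ENSRNOG00000002385), which encodes the joint lubricant lubricin, was at 39.3, 44.4, 30.9, 36.98 and 46.7 CPM in the 5 pools at 4-weeks and 96.8, 81.3, 99.5 and 112 CPM in the 4 pools at 12-weeks. The lowest pool of 12-weeks was far above the highest of 4-weeks, and the log2 fold change was 1.30 (SE 0.12, adjusted p-value 0.000621). Has1, which makes hyaluronan, had 1.22 (SE 0.21, adjusted p-value 0.0107), and Clic5 0.95 (SE 0.17, adjusted p-value 0.0118). Pdgfra, the general receptor of fibroblasts, had 0.85 (SE 0.13, adjusted p-value 0.00643), Dcn 0.67 (SE 0.13, adjusted p-value 0.0181) and Cdh11 0.51 (SE 0.09, adjusted p-value 0.0151). Thy1, a marker of sublining fibroblasts, had -0.28 (SE 0.14, adjusted p-value 0.263), and was not called. Fibroblasts also make the collagens and proteases given above, and their part in those results was not tested.

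Several markers of skeletal muscle and red blood cells were higher at 12-weeks. Of 19 muscle genes tested, 10 were called higher (52.6%, against 1.89% of all genes) and 0 lower, with a median log2 fold change of 1.01. The summed level of the list was 211 to 266 CPM at 4-weeks and 327 to 423 CPM at 12-weeks. Myh7 (ENSRNOG00000016983), the myosin of slow muscle, had the largest rise of the 272 genes called higher in limma and was at 2.24, 1.35, 3.33, 1.26 and 2.27 CPM in the 5 pools at 4-weeks and 7.08, 18.6, 19.7 and 17.6 CPM in the 4 pools at 12-weeks. Replicate 1 was the lowest of 12-weeks by far, yet it was above every pool of 4-weeks, and the log2 fold change was 2.81 (SE 0.33, adjusted p-value 0.00205). Acta1, the actin of skeletal muscle, was at 16.6, 9.06, 20.5, 5.68 and 10.1 CPM in the 5 pools at 4-weeks and 34.5, 47.1, 70.4 and 47.1 CPM in the 4 pools at 12-weeks, with 2.09 (SE 0.33, adjusted p-value 0.00677). Mb, or myoglobin, had 2.20 (SE 0.26, adjusted p-value 0.00205), and Ckm, the muscle creatine kinase, 1.58 (SE 0.29, adjusted p-value 0.0149). Among the 10 largest rises, picked in the same way as the falls, Ca3, a carbonic anhydrase of slow muscle, had 2.32 (SE 0.26, adjusted p-value 0.00169), and Nrap, which anchors actin in muscle, 1.89 (SE 0.23, adjusted p-value 0.00205). The muscle count was 6 to 12 with a pool left out, 6 without replicate 1 of 12-weeks.

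Of 7 red blood cell genes, 3 were called higher (42.9%, against 1.89% of all genes), with a median of 1.27. Hbb, which encodes beta globin, was at 38.5, 27.8, 40.7, 29.96 and 40.00 CPM in the 5 pools at 4-weeks and 114, 40.7, 175 and 101 CPM in the 4 pools at 12-weeks. Replicate 2 of 12-weeks was level with the highest pools of 4-weeks, and replicate 3 was the highest. The log2 fold change was 1.44 (SE 0.32, adjusted p-value 0.0306). Hba-a1 had 1.45 (SE 0.35, adjusted p-value 0.0371) and Hba-a3 1.54 (SE 0.33, adjusted p-value 0.0271), and since these alpha globin genes are nearly identical, reads could not be split between them with certainty. The count was 0 without replicate 1, 2 or 4 of 4-weeks or replicate 1, 3 or 4 of 12-weeks, and 5 without replicate 2 of 12-weeks. Among 10 pericyte and smooth muscle genes, 2 were called lower (20%, against 0.784% of all genes). That count is too small to be read as a result about the list. Of the 10, 6 lay below 0 and 4 above, with a median of -0.19. At an unadjusted p-value under 0.05, 4 were lower and 2 higher. The genes called were Cnn1, at -0.74 (SE 0.18, adjusted p-value 0.0409), and Mcam, at -0.58 (SE 0.11, adjusted p-value 0.0184). Of 7 T and NK cell genes 1 was called higher in limma (14.3%, against 1.89%), too small a count to be read as a result about the list. This was Prf1, which encodes perforin, at 1.17 (SE 0.28, adjusted p-value 0.0373). The pericyte count was 0 without replicate 2 or 4 of 12-weeks and 1 without replicate 3 of 12-weeks or replicate 1, 2, 3 or 4 of 4-weeks. With 1 pool left out, the call of Prf1 was lost without replicate 2, 4 or 5 of 4-weeks and without each pool of 12-weeks. In limma, 0 genes were called among 12 endothelial, 12 neutrophil, 9 mast cell, 11 dendritic cell, 5 eosinophil, 3 B and plasma cell, 6 platelet, 8 Schwann cell, 5 adipocyte and 10 cartilage or bone markers. Of these, 5 endothelial genes, all lower, 5 mast cell genes, all higher, and 0 neutrophil genes had an unadjusted p-value under 0.05. All 12 endothelial genes lay below 0, with a median log2 fold change of -0.18. The median was 0.68 for mast cell genes and -0.77 for neutrophil genes. Among these markers DESeq2 called the mast cell genes Tpsb2 and Hdc, the adipocyte gene Plin4 and the platelet gene Gp9. The platelet gene Gp1bb was the only one of the markers of other cell types with values that had at most 3 reads summed over the 9 OA pools. How far cells of these types in the sort account for the genes above was not tested.

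**Figure D4:**
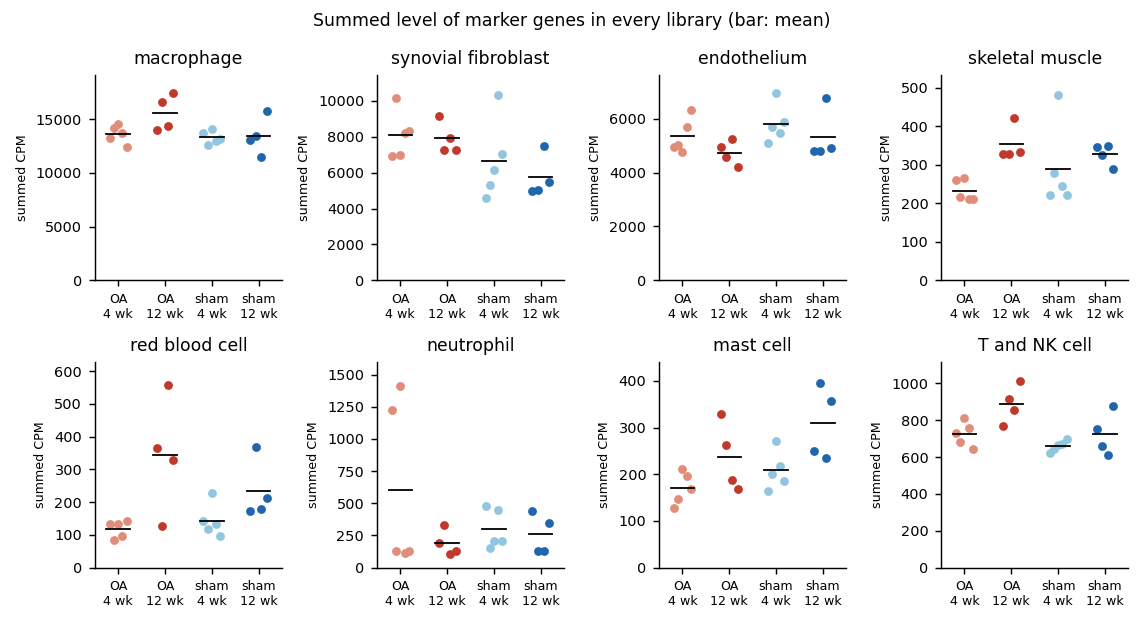
Summed CPM of the marker genes of 8 cell types in every library, by surgery and time point, with the mean of each group. In OA, muscle markers sit at 211 to 266 CPM at 4-weeks and 327 to 423 CPM at 12-weeks, neutrophil markers are high in 2 pools at 4-weeks, and macrophage markers overlap at 12377 to 14597 and 13980 to 17442 CPM.

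Among the genes with the largest differences were several of other functions. Gria2 (ENSRNOG00000054204), a subunit of the AMPA glutamate receptor, was at 8.30, 8.51, 16.6, 8.63 and 8.98 CPM in the 5 pools at 4-weeks and 37.1, 37.6, 34.8 and 34.3 CPM in the 4 pools at 12-weeks. Replicate 3 of 4-weeks was above the rest of its group but below every pool of 12-weeks, and the log2 fold change was 1.86 (SE 0.18, adjusted p-value 0.000628). Ntsr1, the receptor of neurotensin, was at 4.77, 4.53, 9.58, 5.89 and 3.17 CPM in the 5 pools at 4-weeks and 19.4, 25.7, 18.6 and 19.98 CPM in the 4 pools at 12-weeks, with 1.96 (SE 0.25, adjusted p-value 0.00261). Myoc, or myocilin, was at 22.1, 20.8, 32.6, 32.8 and 21.6 CPM in the 5 pools at 4-weeks and 97.2, 87.98, 78.7 and 68.7 CPM in the 4 pools at 12-weeks, with 1.70 (SE 0.16, adjusted p-value 0.000621). Rnase2, a ribonuclease of a family with several close copies in the rat, whose reads may be split between them, was at 2.65, 2.47, 1.61, 1.05 and 0.272 CPM in the 5 pools at 4-weeks and 5.46, 9.21, 3.89 and 15.1 CPM in the 4 pools at 12-weeks, with 2.38 (SE 0.54, adjusted p-value 0.0315). Replicate 5 of 4-weeks held 3 reads of Rnase2, the limit of detection, and the call was lost in 6 of 18 alternatives. Lower at 12-weeks were Slc47a1, a transporter that exports organic cations, at -1.12 (SE 0.23, adjusted p-value 0.0235), the cyclin family gene Ccnjl, at -1.23 (SE 0.19, adjusted p-value 0.00643), and the DNA polymerase gene Polq, at -1.11 (SE 0.24, adjusted p-value 0.0289).

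The study named 18 genes for their difference between OA and sham in these same libraries, so that they are no independent choice. Of these, 13 passed the filter on low values, and 4 were called higher at 12-weeks in OA (30.8%, against 1.89% of all genes). They are Myh7 and Rnase2, given above, the matrix gene Vit, at 10.2, 10.1, 10.96, 14.03 and 13.2 CPM in the 5 pools at 4-weeks and 24.8, 21.96, 25.2 and 22.6 CPM in the 4 pools at 12-weeks with 1.02 (SE 0.11, adjusted p-value 0.00156), and Cemip, which breaks down hyaluronan, at 0.78 (SE 0.20, adjusted p-value 0.0492). The call of Cemip was lost in 11 of 18 alternatives, and the count was 2 without replicate 4 of 4-weeks or replicate 1, 2 or 4 of 12-weeks. In limma 0 were called lower, with 3 at an unadjusted p-value under 0.05, 0 in edgeR, and 2, Fbn2 and C1qtnf3, in DESeq2. Slc1a3, a glutamate transporter, was at 17.3, 14.9, 20.7, 20.6 and 13.97 CPM in the 5 pools at 4-weeks and 9.16, 11.9, 17.8 and 12.2 CPM in the 4 pools at 12-weeks, with -0.47 (SE 0.18, adjusted p-value 0.147), the fibrillin Fbn2 had -1.23 (SE 0.34, adjusted p-value 0.0590) and C1qtnf3 -0.96 (SE 0.28, adjusted p-value 0.0708). Of the 5 below the filter, which were not tested, Tnni1, a troponin of slow muscle, was at 0.471, 0.557, 0.516, 0.351 and 0.454 CPM in the 5 pools at 4-weeks and 2.47, 4.15, 3.25 and 3.22 CPM in the 4 pools at 12-weeks, with every pool of 12-weeks above every pool of 4-weeks. It missed the filter through its low level at 4-weeks. Ocstamp, of osteoclast fusion, was at 0.363 to 0.954 CPM at 4-weeks and 0.238 to 1.45 CPM at 12-weeks, and the cadherin Cdh26 at 0.421 to 1.36 CPM and 0 to 0.483 CPM. Acod1, the enzyme that makes itaconate, was at 1.35, 1.91, 0.574, 0.491 and 0.454 CPM in the 5 pools at 4-weeks and 0.520, 0.604, 0.238 and 0.806 CPM in the 4 pools at 12-weeks, and Fbp1, of gluconeogenesis, at 0.707, 0.636, 0.0574, 0.210 and 0.363 CPM in the 5 pools at 4-weeks and 0.0650, 0.226, 0.159 and 0.483 CPM in the 4 pools at 12-weeks, near the smallest detectable amount.

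The same interval was then read in sham macrophages, which share no library with OA. In sham, 40 of the 14420 genes were called between 12-weeks and 4-weeks (0.277%). Of the 385 genes called in OA, 357 (92.7%) had the same sign in sham, against 68.1% of all genes tested. Their median log2 fold change, taken in the direction of OA, was 0.51 in sham and 0.82 in OA, where the genes had been chosen for it. Taken in that direction, the value was larger in OA for 320 of the 385, a count that includes every gene of opposite sign in sham. There were 19 genes called in both, 4.94% of the calls in OA and 47.5% of those in sham, all in the same direction. Median standard errors on the log2 scale were 0.096 in OA and 0.145 in sham, so the sham comparison was the less precise one.

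The difference between the OA and sham intervals was tested itself, as an interaction over all 18 libraries. In limma, edgeR and DESeq2, 0 of 14420 genes were called (0%). Unadjusted p-values were under 0.05 for 432 genes in limma (3%), 473 in edgeR and 527 in DESeq2, and the smallest adjusted p-values were 0.962, 0.976 and 0.0522. The median standard error of the interaction was 0.18 on the log2 scale. Of the 385 genes called in OA, 37 had an unadjusted interaction p-value under 0.05. None of the genes above is thereby shown to have a difference between time points in OA unlike that in sham. Whether a gene differs between OA and sham at a given time point is not asked by this test.

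For several of the groups described above, the OA and sham values were these. Plk1 was at 7.97, 6.33, 6.92, 4.78 and 8.45 CPM in the 5 sham pools at 4-weeks and 4.77, 9.74, 3.04 and 2.20 CPM in the 4 at 12-weeks, where replicate 2 stood at the level of 4-weeks. The interaction of Plk1 was -0.53 (95% confidence interval -1.47 to 0.42, unadjusted p-value 0.259), and that of Mki67, whose log2 fold change in sham was -0.05, was -0.89 (95% confidence interval -2.16 to 0.38, unadjusted p-value 0.160). The medians of the cell cycle list were -0.63 in OA and -0.32 in sham. In the same order they were 1.01 and 0.49 for muscle, 1.27 and 0.66 for red blood cell and 0.17 and 0.11 for fibroblast markers. Those of interferon genes were 0.30 and 0.23, of chemokines 0.29 and 0.18, and of complement 0.33 and 0.19. The sham median was the larger for immediate early genes (0.35 and 0.43), toll-like receptors and NF-kB (0.13 and 0.24) and cytokines (0.09 and 0.26). Mt-nd5 had an interaction of 0.63 (95% confidence interval 0.05 to 1.21, unadjusted p-value 0.0348), and Mt-nd6 of 0.88 (95% confidence interval 0.13 to 1.64, unadjusted p-value 0.0246). Vsig4, with 1.21 in sham, had -0.10 (95% confidence interval -0.80 to 0.60, unadjusted p-value 0.759), Il6 had 0.06 (95% confidence interval -0.88 to 1.00, unadjusted p-value 0.898) and Cxcl10 had -0.04 (95% confidence interval -0.48 to 0.39, unadjusted p-value 0.838). Each of these 3 intervals includes 0 and differences of more than 0.39 in either direction. Cxcl10, Ccl2, Nr4a3 and Gria2 were among the genes called in sham too, at 0.94, 0.84, 1.33 and 1.67. The smallest unadjusted p-values of the interaction belonged to the protease gene Adamts15, at -0.60 (95% confidence interval -0.87 to -0.34, unadjusted p-value 0.000164), the metallothionein Mt3, at 2.23 (95% confidence interval 1.07 to 3.38, unadjusted p-value 0.000726), and the ephrin receptor Epha10, at 1.80 (95% confidence interval 0.87 to 2.74, unadjusted p-value 0.000742). In OA these 3 genes had log2 fold changes of -0.07, -0.57 and 0.34, and in sham 0.54, -2.80 and -1.46. Rnase2 had opposite signs, 2.38 in OA and -0.50 in sham, with an interaction of 2.88 (95% confidence interval 0.61 to 5.14, unadjusted p-value 0.0158). Its sham value had an SE of 0.82 and an adjusted p-value of 0.820 in limma, so its sign in sham is not settled.

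**Figure D5:**
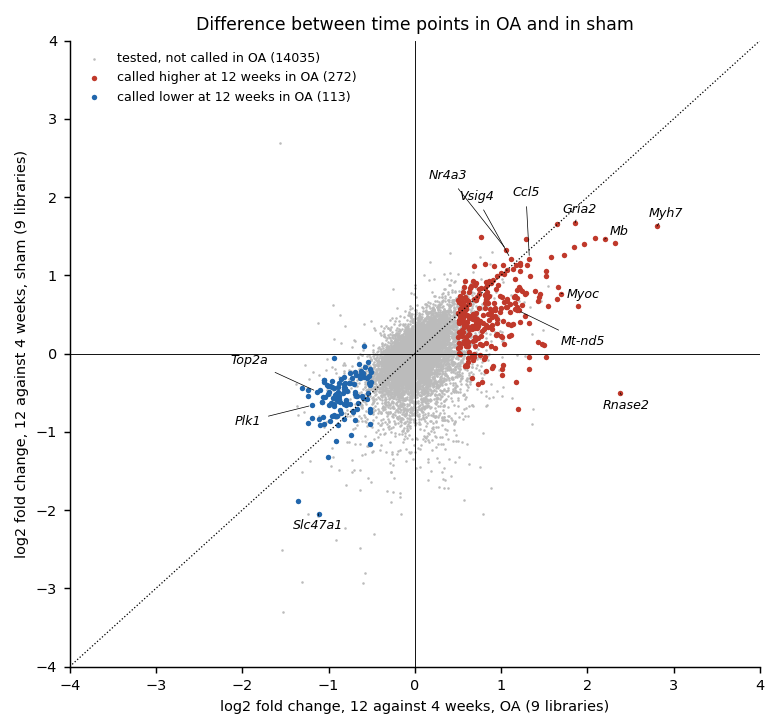
Log2 fold change at 12 against 4 weeks in OA (horizontal) and in sham (vertical) for all 14420 genes tested, with the genes called higher in OA in red, those called lower in blue, and the diagonal dotted. Of the 385 coloured genes, 357 lie on the same side of 0 in sham. Rnase2 lies apart at 2.38 in OA (SE 0.54) and -0.50 in sham (SE 0.82).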

How the data were processed

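RNA of CD11b/c-sorted synovial cells was sequenced as stranded, paired-end, ribosome-depleted total RNA. According to the methods and the submitters' notes, the authors checked reads with fastp 0.20.0, aligned them with STAR 2.7.6a to the rat Rnor_6.0 genome, removed duplicates with Sambamba and counted genes with featureCounts 2.0.0, whose strand setting is not given in the sources used here. Reads of overlapping genes on opposite strands may therefore not be told apart. The deposited values are signal, reads per gene that the authors divided by DESeq2 1.24.0 size factors within each time point. The deposited log2 fold changes, p-values and test score of the authors' own comparisons were not used. At both time points 100% of values were whole multiples of 1 read (tolerance 0.001), so counts of reads were recovered from the deposited signal, and both tables were joined over 30643 genes. Of 28056 symbols, 18742 matched RefSeq on GRCr8.

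A gene was tested where it averaged 10 normalized reads or more in both tables (14420 genes). The 9 OA libraries were fitted with limma 3.58.1 in R 4.3.3 on TMM-scaled log2 CPM (prior count 2), with Benjamini-Hochberg adjustment, and all 18 libraries for the interaction. edgeR 4.0.16 (quasi-likelihood) called 383 genes and DESeq2 1.42.0 called 572 on the recovered reads. Printed CPM share TMM factors over 18 libraries. Replicate pairs of OA differed beyond sampling noise, with a chi-square per degree of freedom of 5.84 to 16.9 over 16 pairs. The fits were tested on simulated data with known changes. Time points were compared as labelled. The labels give 4 OA libraries at 12-weeks.

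The comparison and the 49 lists of genes and markers were chosen with earlier results of these data known. Named genes were the 10 called with the largest rise and fall whose groups did not overlap, averaging 50 normalized reads or more in an OA group and a symbol that is not a clone number, up to 4 called genes per list with the largest fold change, the genes the study named, Itgam, Csf1r, Cd68 and Stat6, and the 3 with the smallest interaction p-value. Other genes given with values, such as Cdk1, Mki67, Mcm2, Pcna, Rrm2, Aurka, Birc5, Ccl7, Ifit3, Il1b, Isg15, Irf7, Trem2, Cx3cr1, Lyve1, Folr2, Col1a1, Col3a1, Col4a2, Dcn, Cdh11, Thy1, Mt-co1, Mt-co2, Mt-nd4l, Eln and Lamb1, were chosen after their values were seen. The alternatives were other tools, scalings, prior counts, filters and thresholds, a replicate block, quality weights, and each library left out. The lists with no called gene not given singly above had the following medians on the log2 scale: osteoclast fusion and resorption -0.01, prostaglandin and leukotriene synthesis 0.27, itaconate, arginine and glutamate metabolism 0.03, and replication-dependent histones -0.56 (of which DESeq2 called 3 of 6 lower). Of 16 iron and heme genes, Cd163 alone was called (6.25%, against 1.89% of all genes called higher).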

Additional observations from a re-analysis of the deposited data

Results flagged for a closer look

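In groups of 4 or 5 pools, a pool was marked where its gap to the nearest other pool, divided by the whole range of the group, exceeded Dixon's 95% critical value. Of 272 groups of named genes and lists in OA, 17 were marked, and chance marks about 1 in 20 groups. No explanation was tested for any of them.

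At 4-weeks, replicate 3 was the highest for Gria2, at 16.6 CPM against 8.30 to 8.98 in the other pools, for Ccl24, at 194 CPM against 90.3 to 109, for Ccr1, at 86.3 CPM against 58.2 to 65.1, and for platelet markers, at a mean log2 CPM of 3.60 against 2.85 to 3.01. Replicate 4 was the lowest for Mt-nd5, at 160.3 CPM against 221 to 243, for Mt-cyb, at 422 CPM against 519 to 540.3, and for the mean log2 CPM of mitochondrially encoded genes, at 7.64 against 7.98 to 8.04. Replicate 2 was the highest for Pdgfra, at 72.8 CPM against 45.2 to 51.4, and for Mmp13, at 111 CPM against 0.912 to 5.42. Replicate 1 was the highest for Epha10, at 2.89 CPM against 1.26 to 1.72. Replicate 5 was the lowest for the mean log2 CPM of lining macrophage genes, at 7.69 against 7.78 to 7.81, and of the lysosomal proton pump and cathepsins, at 7.47 against 7.59 to 7.63, and the highest for adipocyte markers, at 5.65 against 5.37 to 5.43.

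At 12-weeks, replicate 1 was the lowest for Myh7, at 7.08 CPM against 17.6 to 19.7, and for T and NK cell markers, at a mean log2 CPM of 2.78 against 3.11 to 3.15. Replicate 2 was the highest for Cd163, at 1532 CPM against 1252 to 1290 CPM. Replicate 4 was the highest for Sctr, the secretin receptor, at 5.32 CPM against 1.30 to 1.58.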

How the results depend on the processing

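Of OA genes called at 12 against 4 weeks (385, 272 higher and 113 lower), 131 (105 higher, 26 lower) were called with all 18 libraries in the fit, 108 (83 and 25) with a log2 fold change of 1 as the minimum, and 787 (513 and 274) with no minimum. Genes called lower numbered 189 in DESeq2, 197 without TMM scaling, which shifted the median of all genes to -0.064, and 61 without replicates 1 and 3 of 4-weeks, a fit chosen after seeing the data. Other prior counts, filters and scalings moved each count by 1.5 times or less. With 1 pool left out, 174 to 437 genes were called, 133 to 311 higher and 35 to 131 lower. Genes called lower were 35 without replicate 1 of 4-weeks, 38 without replicate 2 and 74 without replicate 4 of 4-weeks, and 41, 53, 52 and 69 without replicates 1, 2, 3 and 4 of 12-weeks, and genes called higher were 133 and 171 without replicates 1 and 3 of 12-weeks. The cause of these shifts was not tested. With all 18 libraries in the fit 0 cell cycle, 0 cytokine, 1 NF-kB, 1 fibroblast, 5 muscle and 8 mitochondrial genes were called. The interaction had 0 calls in limma in each alternative and in edgeR and DESeq2, with 432, 473 and 527 unadjusted p-values under 0.05. Over the named genes and alternatives, 1260 values kept their direction and side of the threshold, and 231 lost the call with the same direction. A further 10 gained the call, and 10, all of genes not called, changed sign. No called gene changed sign in the alternatives run. The calls of Acta1, C4b, Ca3, Ccnjl, Cd163, Cxcl10, Gria2, Mb, Mt-cyb, Mt-nd5, Mt-nd6, Myh7, Myoc, Nr4a3, Nrap, Ntsr1, Oasl, Prg4, Sema3e, Tnfaip3 and Vsig4 were kept in all 18 alternatives of other tools, settings and pools, while those of Il6, Mt-nd4, Pbk and Prf1 were lost in 9, of Egr2 in 10 and of Cemip in 11.

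Same-numbered OA pools did not deviate together (correlations 0.046, 0.007, 0.011 and -0.049), so they share only a number. With the replicate block, limma called 229 genes (151 higher, 78 lower, 198 of them among the 385) and edgeR 229 (150 and 79), the edgeR fit being chosen after seeing the data. With it 17 cell cycle, 8 mitochondrial and 1 chemokine genes were called, and 0 genes in the interaction. No pool of 12-weeks correlated best with the pool of its own number.

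Depth overlapped between the groups. The median standard error was 0.096 for OA and 0.18 for the interaction on the log2 scale. A count of 0 in the interaction does not show that the OA and sham intervals were alike.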
